A study of Mus musculus with 2 samples.

Results

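The 39 genes described here mark the excitatory neurons of the cerebral cortex and the cortical layers in which these neurons lie. They were taken from a list of marker genes and divided by role into 11 upper layer genes, 20 deep layer genes and 8 pan-excitatory genes, and all 39 were found by symbol among 55450 gene rows. RNA came from the left cerebral cortex of adult mice of the C57BL/6 substrain B6NCrl at an age of 6 months, with no treatment or engineered allele named in the labels. The labels gave 1 group of 2 libraries, made by poly(A) selection and Nextera tagmentation (cutting and tagging of cDNA by a transposase) from 20 ng of RNA. Both libraries carried the same donor entry and different sample records, so whether they came from separate animals rests on their numbers as biological replicates 1 and 2, and the spread between them may be technical. The labels called the tissue male in one field and the sex not collected in another.

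Excitatory neurons of the cortex release glutamate and send their axons to other cortical areas or out of the cortex. Their identity is set by transcription factors that act in layers: upper layer neurons mostly connect cortical areas, layer 5 neurons include those that project to the brainstem and spinal cord, layer 6 neurons include those that project to the thalamus, and layer 6b is the remnant of the early subplate. Pan-excitatory factors such as the NeuroD and Emx families are shared by these neurons across layers. The deposited tables gave each gene an expected count of fragments and a level in TPM, the abundance of its transcripts relative to all others in the library, which is scaled by transcript length and so can be compared between genes. Genes received 51888568 fragments in replicate 1 against 26776336 in replicate 2. Intervals and tests cover counting error only, since each replicate is 1 library. No molecular identifiers were counted, so copies of the same molecule may be counted as separate fragments. Even the counting error may therefore be understated. All values come from whole tissue, in which fewer cells of a type and less RNA per cell cannot be told apart.

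Of the 39 genes, 38 reached at least 1 TPM in both libraries, the level taken as detected, beside 24.9% of all 55450 gene rows. The exception was Nxph4, at 2.52 TPM in replicate 1 and 0.82 TPM in replicate 2. Mean levels ran from 1.43 TPM for Scnn1a to 475 TPM for Arpp21. The median over the 39 genes was 12.3 TPM in replicate 1 and 11.3 TPM in replicate 2, close to the 12.7 and 11.7 TPM over all detected genes. Together the genes held 138334 fragments or 0.267% of replicate 1 (95% Clopper-Pearson interval 0.265 to 0.268%) and 86448 fragments or 0.323% of replicate 2 (0.321 to 0.325%). Mef2c and Arpp21 alone made up 46.6% and 53.0% of their summed TPM. The order of levels was similar in both libraries, with a Spearman correlation of 0.931 across the 39 genes, beside 0.947 across 13794 detected genes; the genes share the 2 libraries and are not replicates.

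By role, the pan-excitatory genes stood highest, at a median of 35.8 TPM in replicate 1 and 52.8 TPM in replicate 2 (44.3 ± 12.02, SD, n = 2). This role held genes of very different levels. Mean levels of Arpp21, Mef2c, Lmo4 and Lmo3 were 475, 383, 124 and 56.8 TPM. Those of Neurod6, Emx1, Neurod2 and Bhlhe22 were 31.4, 23.75, 8.85 and 5.8 TPM. Upper layer genes had medians of 12.3 and 6.50 TPM (9.38 ± 4.07, SD, n = 2), and deep layer genes of 10.4 and 8.88 TPM (9.66 ± 1.10, SD, n = 2). The upper layer median was therefore 1.17 times the deep layer median in replicate 1 and 0.732 times in replicate 2, so the order of these roles turned between the libraries. Within the deep layers, layer 5 genes had medians of 17.4 and 18.7 TPM, layer 6 genes of 8.19 and 7.70 TPM and the 3 layer 6b genes of 11.2 and 14.0 TPM. Layer 5 stood above layer 6 in both libraries, by 2.12 times and 2.43 times. Along the order of mean levels, 7 of the 38 pairs of neighbours had ranges that did not overlap. These steps lay below Mef2c, Calb1, Etv1, Sox5, Bhlhe22, Pou3f1 and Ntsr1, and the other neighbours did not differ beyond their spread.

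**Figure D1:**
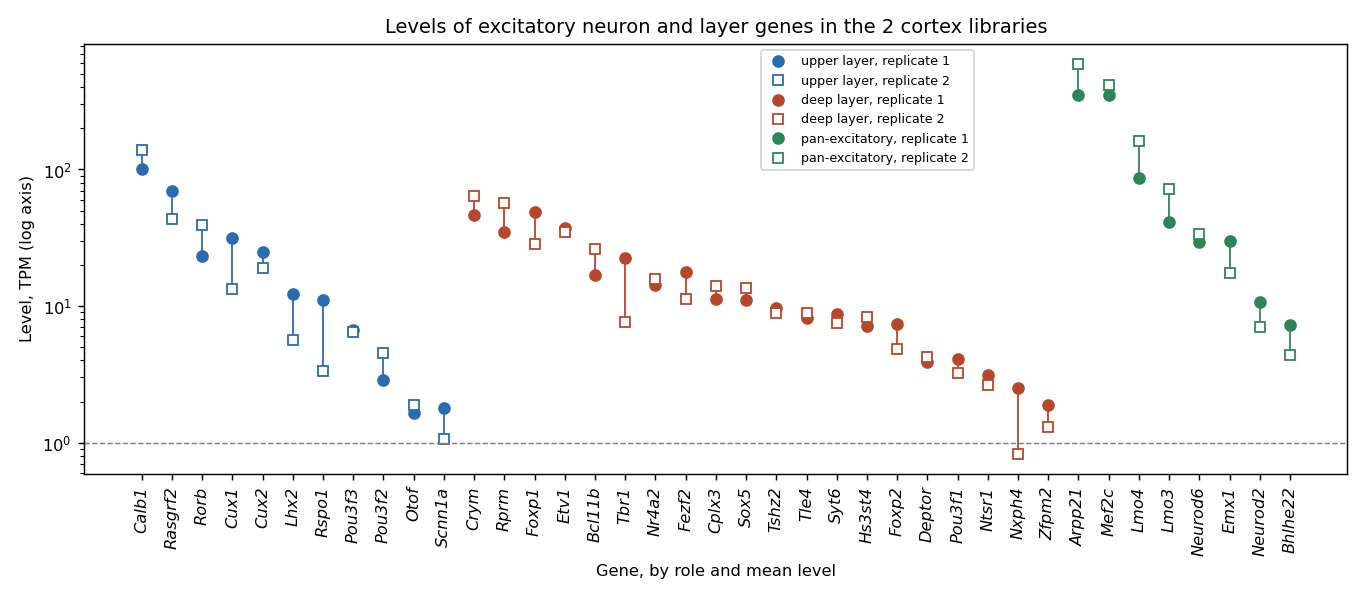
Level of each of the 39 genes in TPM (log axis) in replicate 1 (filled circles) and replicate 2 (open squares), ordered by role and mean level; the line joins the libraries and the dashed line marks 1 TPM. Arpp21 at 353 and 597 TPM and Mef2c at 351 and 414 TPM lie highest, and Nxph4 in replicate 2 is the only point under 1 TPM, at 0.82.

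For each gene, the rounded expected counts of the 2 libraries were set against each other in a two-sided exact binomial test, with Benjamini-Hochberg adjustment over 14640 tested genes. A gene was called at an adjusted p under 0.05 and a ratio of replicate 2 over replicate 1 of at least 1.5-fold, on CPM (fragments scaled to library size) plus 0.5. Such a call compares these libraries, not conditions. Of the 39 genes, 4 were called higher in replicate 2, or 10.3% beside a background of 3.22%, and 12 were called lower, or 30.8% beside 17.2%. In all, 16 genes were called, beside 20.4% of all tested genes. The adjusted p alone was under 0.05 for 31 of the 39 (12 higher and 19 lower), beside 62.6% of all tested genes. The median log2 ratio was -0.16 over the 39 genes and -0.03 over all tested genes. Scaling by total counts instead of TMM factors moved the median of all genes to 0.09, and it gave 5 higher and 10 lower of the 39 beside 830 higher (5.67%) and 2063 lower (14.1%) of all tested genes, where TMM gave 472 and 2517.

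**Figure D2:**
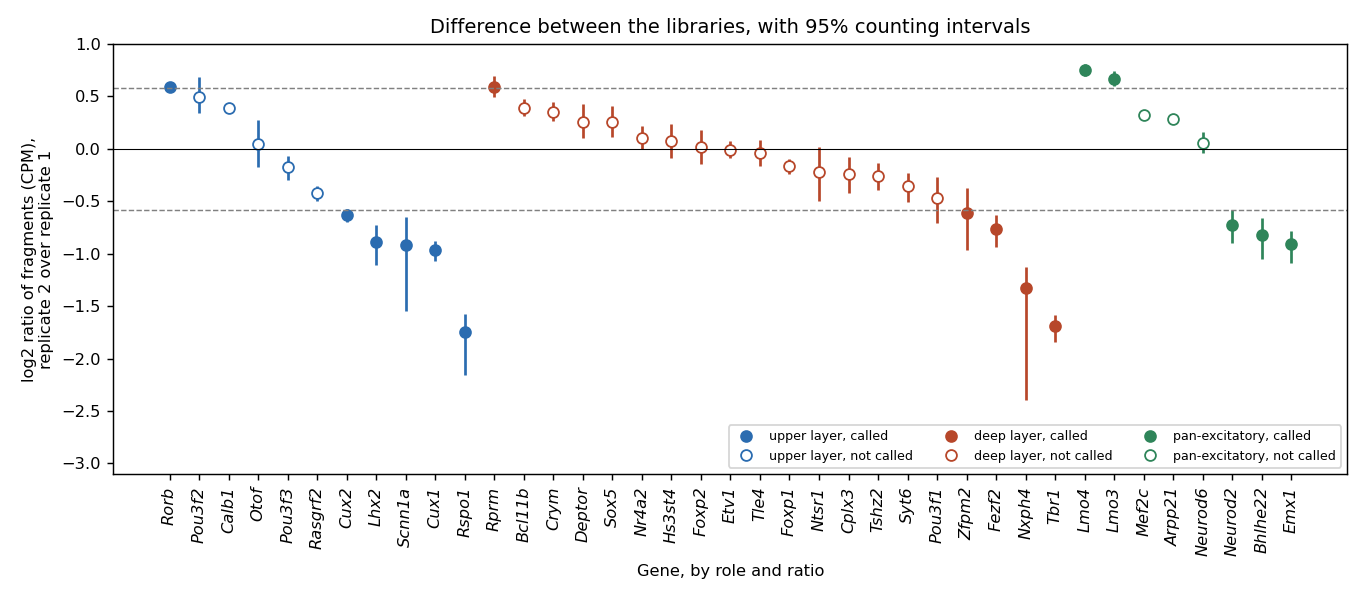
Log2 ratio of fragments (CPM plus 0.5), replicate 2 over replicate 1, for each gene by role. Bars are 95% Clopper-Pearson counting intervals, computed without the added 0.5. Filled points were called and dashed lines mark 1.5-fold. Rspo1 at -1.74, Tbr1 at -1.69 and Nxph4 at -1.33 lie lowest, and Lmo4 at 0.75 highest.

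Among the 11 upper layer genes, 5 were called lower in replicate 2 (Cux1, Cux2, Lhx2, Rspo1 and Scnn1a), 1 was called higher (Rorb) and 5 were not called. Of all tested genes, 17.2% were called lower and 3.22% higher. The median log2 ratio of the upper layer genes was -0.42. The cut-like homeobox factor Cux1 had 4149 fragments and 31.4 TPM in replicate 1 and 1192 fragments and 13.4 TPM in replicate 2, a log2 ratio of -0.97 (95% interval -1.07 to -0.88). Its paralogue Cux2, another marker of upper layer neurons, had 7870 and 2867 fragments and levels of 25.0 and 18.9 TPM, at a log2 ratio of -0.63. Rorb, a nuclear receptor typical of layer 4, went the other way, from 8303 fragments and 23.3 TPM to 7068 fragments and 38.99 TPM, at a log2 ratio of 0.59. Rorb thus stood at 0.742 times the TPM of Cux1 in replicate 1 and at 2.92 times in replicate 2. This change of order was seen in TPM only. Per length of the longest coding transcript, a scale described below, Rorb stood above Cux1 in both libraries. The values were 38.2 against 13.8 in replicate 1 and 60.5 against 7.37 in replicate 2. Rorb at 1.51-fold and Cux2 at 1.55-fold lay just past the fold required for a call.

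Rspo1 had the lowest ratio of all 39 genes. This secreted activator of Wnt signalling is a layer 4 marker. It had 747 fragments and 11.1 TPM in replicate 1 against 116 fragments and 3.32 TPM in replicate 2. It was 3.35-fold lower in CPM plus 0.5 (log2 ratio -1.74, 95% interval -2.16 to -1.58). Lhx2, a LIM homeobox factor of the developing forebrain, had levels of 12.3 and 5.64 TPM and a log2 ratio of -0.89. Scnn1a, a subunit of the epithelial sodium channel and a layer 4 marker, stood near 1 TPM at 1.79 and 1.07 TPM, with 203 and 54 fragments. The remaining upper layer genes were not called. Calb1, the calcium buffer calbindin, which is also made by interneurons, had the highest level of the role at 101 and 140 TPM. Rasgrf2, a guanine nucleotide exchange factor, stood at 69.1 and 43.7 TPM. Otof, the calcium sensor otoferlin, was low in both libraries at 1.64 and 1.89 TPM.

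The 3 POU homeobox factors of the list are close relatives, of which Pou3f2 and Pou3f3 are upper layer factors and Pou3f1 a layer 5 factor. Pou3f2 had levels of 2.88 and 4.53 TPM, Pou3f3 of 6.66 and 6.50 TPM and Pou3f1 of 4.10 and 3.21 TPM, and none was called. Their log2 ratios were 0.49 (95% interval 0.34 to 0.68), -0.18 (-0.29 to -0.07) and -0.47 (-0.71 to -0.27), so the interval of Pou3f2 lay above those of the other two, which overlapped. The last part of the homeobox, the DNA-binding domain, shows how far fragments can tell the 3 genes apart. It is given from mm10 with GENCODE M21 gene models at chr4:124658799-124658888 (plus strand) for Pou3f1, chr4:22486893-22486982 (minus strand) for Pou3f2 and chr1:42698436-42698525 (plus strand) for Pou3f3, in coding sense, 90 bases each, with capitals at the 27 positions where the 3 differ:
Pou3f1: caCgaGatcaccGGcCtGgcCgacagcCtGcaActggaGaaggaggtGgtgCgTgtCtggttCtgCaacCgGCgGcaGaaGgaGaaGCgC
Pou3f2: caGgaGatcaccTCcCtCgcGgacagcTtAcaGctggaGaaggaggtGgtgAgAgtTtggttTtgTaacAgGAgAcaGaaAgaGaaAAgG
Pou3f3: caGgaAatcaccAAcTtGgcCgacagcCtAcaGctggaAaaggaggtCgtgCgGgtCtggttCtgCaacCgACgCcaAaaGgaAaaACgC
In this window Pou3f1 matched Pou3f2 at 70 of 90 bases and Pou3f3 at 75, and Pou3f2 matched Pou3f3 at 67. The longest coding run shared by any pair was 38 bases (Pou3f1 and Pou3f2). Of all words of 31 bases in the transcripts, 98.2% of those of Pou3f2 and 99.0% of those of Pou3f3 occurred in no other gene. For Pou3f1 the share was 91.8%, and most of its shared words lay in the antisense gene Gm2164.

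The end of the homeobox of Cux1 and Cux2 is shown for the same reason, and because 1 of the main Cux1 transcripts lacks it. It is given in coding sense from mm10 with GENCODE M21, from chr5:136275460-136279512 for Cux1-201 and chr5:121861375-121864729 for Cux2-202, both on the minus strand and each joined over an intron to 90 bases, with capitals at the 22 positions where they differ:
Cux1: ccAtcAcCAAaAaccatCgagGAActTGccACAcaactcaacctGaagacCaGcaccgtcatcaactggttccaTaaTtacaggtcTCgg
Cux2: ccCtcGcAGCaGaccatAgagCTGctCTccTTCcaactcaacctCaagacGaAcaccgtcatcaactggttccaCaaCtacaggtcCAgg
The pair was identical at 68 of 90 bases, and the longest run shared anywhere in their coding sequences was 23 bases. Words of 31 bases found in no other gene made up 97.4% for Cux1 and 99.3% for Cux2.

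Cux1 gives rise to a long homeobox protein and, by alternative splicing, to a shorter Golgi protein without the homeobox. The transcript Cux1-211, which encodes 676 amino acids, had no coding base in the window above and shared 61.5% of its coding bases with Cux1-201, which encodes 1426. Both transcripts were singled out after their values were seen. By TPM, Cux1-211 held 53.0% and 63.7% of the gene and Cux1-201 6.89% and 16.2%. By fragments, Cux1-211 held 43.1% and 39.4% and the 12862-base Cux1-201 26.6% and 47.3%, so the leading transcript differed between the measures in replicate 2. The gene level of Cux1 therefore includes fragments assigned to a transcript without the homeobox. Fragments were also divided by the length of the longest coding transcript and scaled to a fixed sum over all coding genes. On that scale Cux1 stood at 13.8 and 7.37, against 31.4 and 13.4 TPM. It moved from place 14 to place 28 among the 39 genes.

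Among the 8 layer 5 genes, 1 was called lower (Fezf2), none was called higher and 7 were not called. Of all tested genes, 20.4% were called. The adjusted p alone was under 0.05 for 7 of the 8 (3 higher and 4 lower), beside 62.6% of all tested genes. Fezf2, the zinc finger factor that specifies neurons projecting out of the cortex, had 1449 fragments and 17.9 TPM in replicate 1 and 476 fragments and 11.3 TPM in replicate 2, at a log2 ratio of -0.76 (95% interval -0.93 to -0.63). Bcl11b (Ctip2), which acts downstream of Fezf2 in these neurons and is also made by striatal and GABAergic neurons, had levels of 16.8 and 26.2 TPM and a log2 ratio of 0.39 (0.32 to 0.48). The TPM of Bcl11b was 0.943 times that of Fezf2 in replicate 1 and 2.33 times in replicate 2, so this pair of layer 5 factors did not keep one proportion. Crym, a thyroid hormone binding protein, stood at 46.2 and 63.5 TPM, the highest mean of the deep layer genes. The ETS factor Etv1 stood at 37.4 and 34.8 TPM, with a log2 ratio of -0.01 (-0.09 to 0.07).

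Tshz2, a zinc finger factor, was measured at 9.75 and 8.91 TPM, but only 32.8% of its 31-base words occurred in no other gene. It overlaps the noncoding gene Gm26883 on the opposite strand, which had 222.92 and 139.04 expected fragments, 14.4% and 19.1% of those of Tshz2, so the division of fragments between them is uncertain. Deptor, an inhibitor of mTOR signalling, stood at 3.90 and 4.22 TPM. Foxp1, a forkhead factor of the cortex and the striatum, had levels of 48.6 and 28.4 TPM, a log2 ratio of -0.77 in TPM against -0.16 in fragments.

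Of the 9 layer 6 genes, 2 were called lower (Tbr1 and Zfpm2), 1 was called higher (Rprm) and 6 were not called. Of all tested genes, 17.2% were called lower and 3.22% higher. Tbr1, the T-box factor that sets the identity of neurons projecting to the thalamus, had 3330 fragments and 22.3 TPM in replicate 1 and 574 fragments and 7.70 TPM in replicate 2. It was 3.22-fold lower in CPM (log2 ratio -1.69, 95% interval -1.84 to -1.58), with an adjusted p of 5.33e-194 in the exact binomial test. Zfpm2, a cofactor of GATA factors, was low at 1.90 and 1.30 TPM and was called at 1.53-fold lower. Rprm, a mediator of cell cycle arrest used as a marker of layer 6, had 34.8 and 56.6 TPM and lay at the fold required for a call, at 1.501-fold higher.

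The other layer 6 genes were closer between the libraries. Sox5, an SRY-related factor, had levels of 11.1 and 13.6 TPM. Tle4, a corepressor, stood at 8.19 and 8.85 TPM and Hs3st4, a heparan sulfate sulfotransferase, at 7.16 and 8.28 TPM. The neurotensin receptor Ntsr1, which marks neurons projecting to the thalamus, stood at 3.13 and 2.64 TPM. Foxp2, a forkhead factor, had 840 and 480 fragments, a log2 ratio of 0.02 (95% interval -0.15 to 0.18), while its TPM was 7.43 and 4.89. Syt6, a synaptotagmin, stood at 8.81 and 7.51 TPM. For Tle4, Hs3st4, Ntsr1 and Foxp2 the interval of the log2 ratio included 0.

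Among the 3 layer 6b genes, Nxph4 was called lower, beside 17.2% of all tested genes, and Cplx3 and Nr4a2 were not called. Nxph4, a secreted ligand of neurexins, had 153 fragments in replicate 1 and 26 in replicate 2, at a log2 ratio of -1.33 (95% interval, computed without the added 0.5, -2.39 to -1.13). Cplx3, a complexin of the synapse, stood at 11.2 and 14.0 TPM, and the nuclear receptor Nr4a2 (Nurr1) at 14.3 and 15.7 TPM. Their log2 ratios were -0.24 and 0.10.

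The pan-excitatory genes divided. The bHLH factors Neurod2 and Bhlhe22 and the homeobox factor Emx1, which marks the dorsal telencephalon, were called lower in replicate 2. The LIM-only cofactors Lmo3 and Lmo4 were called higher. Of the 8 genes, 37.5% were thus called lower and 25% higher, beside 17.2% and 3.22% of all tested genes. Emx1 had 1582 fragments and 30.1 TPM in replicate 1 and 468 fragments and 17.4 TPM in replicate 2, at a log2 ratio of -0.91. Neurod2 had levels of 10.7 and 7.01 TPM at -0.72, and Bhlhe22 of 7.26 and 4.41 TPM at -0.82. Neurod6, of the same family as Neurod2, stood at 29.4 and 33.5 TPM and was not called at 0.06 (95% interval -0.04 to 0.16). The TPM of Neurod6 was 2.75 times that of Neurod2 in replicate 1 and 4.77 times in replicate 2.

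Lmo4 had 5007 fragments and 86.1 TPM in replicate 1 and 4771 fragments and 163 TPM in replicate 2, at a log2 ratio of 0.75, the highest of all 39 genes. Lmo3 had levels of 41.5 and 72.1 TPM at 0.67. The proportion of Lmo4 to Lmo3 in TPM was similar in both libraries, at 2.08 and 2.26. Mef2c, a MADS-box factor that responds to neuronal activity, stood at 351 and 414 TPM. Arpp21, a phosphoprotein regulated by cyclic AMP and also abundant in the striatum, stood at 353 and 597 TPM. Both lay above 97% of detected genes in mean TPM, and neither was called, at log2 ratios in fragments of 0.33 and 0.29.

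The called genes differed in GC content, the share of G and C in the transcripts of a gene weighted by their TPM. The 12 genes called lower had a median GC content of 56.8% and the 4 called higher of 47.4%. Across the 39 genes, GC content and the log2 ratio had a Spearman correlation of -0.574, beside -0.307 across 14639 tested genes; the points share both libraries and their depth. None of the 5 genes under 45% GC was called lower, against 1 of 10 at 45 to 50%, 3 of 9 at 50 to 55%, 6 of 12 at 55 to 60% and 2 of 3 above. Of all tested genes in the same classes, 7.22%, 11.3%, 15.7%, 27.2% and 50.9% were called lower. After trends on GC content and length over all tested genes were removed, 3 of the 39 genes were called higher, beside 3.45% of all tested genes, and 7 lower, beside 15.1%, a share of the 39 near that background. Of the 16 calls, 9 kept their direction and call. Tbr1 at -1.60, Rspo1 at -1.46, Nxph4 at -0.94, Cux1 at -0.86 and Lmo4 at 0.69 were among these. Cux2, Lhx2, Zfpm2, Neurod2, Emx1, Rorb and Lmo3 no longer passed 1.5-fold, and Bcl11b was called higher at 0.78. Pou3f1, not called in either case, went from -0.47 to 0.22. Whether other features of the libraries move with these ratios was not tested.

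**Figure D3:**
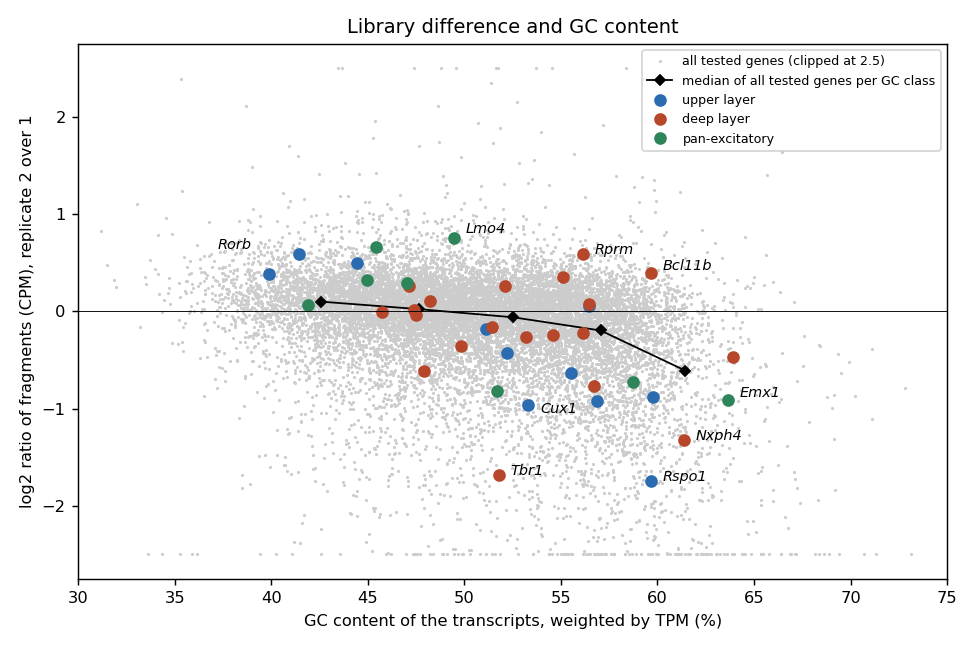
GC content of the transcripts (percent, weighted by TPM) against the log2 ratio of fragments, replicate 2 over replicate 1, for all tested genes (grey, clipped at 2.5) and the 39 genes (coloured by role); black diamonds are medians of all tested genes in 5 GC classes. The diamonds fall from 0.10 to -0.61, and Tbr1 at -1.69 lies far below the diamond of its class at -0.06.

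TPM and fragments gave different ratios for some of the genes, since a gene's TPM also rises when its fragments are assigned to shorter transcripts. Over all tested genes the log2 ratio of TPM exceeded that of fragments by a median of 0.12. For 8 of the 39 genes the distance from that median was over 0.3, beside 11.8% of tested genes. The ratio changed sign for 3 of the 39, beside 14.2% of tested genes: Foxp2 (0.02 in fragments and -0.59 in TPM), Cplx3 (-0.24 and 0.31) and Tle4 (-0.04 and 0.11). Arpp21 moved from 0.29 in fragments to 0.76 in TPM. With the fold taken from TPM and the adjusted p still from the exact test on fragments, 7 of the 39 were called higher, beside 6.99% of all tested genes, and 12 lower, beside 15.6%. Rasgrf2 and Foxp1 were then called lower and Cux2 and Zfpm2 were not, and Foxp2 was past 1.5-fold lower in TPM without passing the adjusted p.

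**Figure D4:**
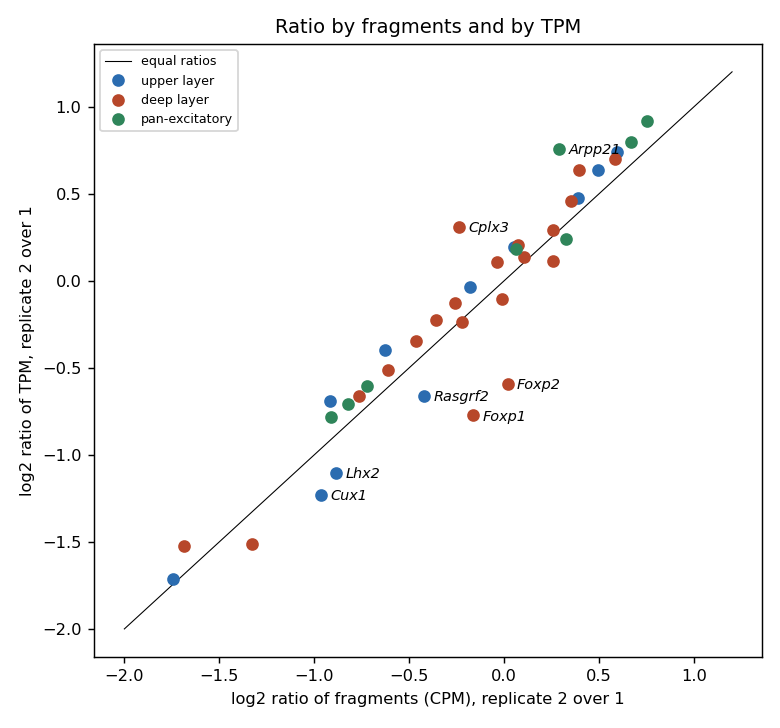
Log2 ratio of replicate 2 over replicate 1 by fragments (CPM, horizontal) and by TPM (vertical) for the 39 genes, with the line of equal ratios. Foxp1 (-0.16 and -0.77) and Foxp2 (0.02 and -0.59) lie far below the line, and Arpp21 (0.29 and 0.76) and Cplx3 (-0.24 and 0.31) far above it.

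Of the 38 detected genes, 30 had at least 2 annotated transcripts. The transcript with the highest share of TPM was the same in both libraries for 25 of these 30 in the first transcript tables, and the same in both libraries and both quantifications for 24, beside 75.4% of comparable genes. The forkhead genes were among the exceptions. For Foxp2 the main transcript was the 1293-base Foxp2-202 in replicate 1, at 54.2% of TPM, and the 6760-base Foxp2-207 in replicate 2, at 57.5%. By fragments, Foxp2-207 led in both, at 59.2% and 79.3%. For Foxp1 it was Foxp1-225 at 49.8% in replicate 1 and Foxp1-204 at 29.7% in replicate 2, and the 7029-base Foxp1-206 held none of the fragments in replicate 1 and 36.7% in replicate 2. Both genes differed by less than 1.5-fold in fragments, and longer transcripts held a higher share in replicate 2, where their TPM was lower.

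Scnn1a changed from Scnn1a-201 at 54.98% to Scnn1a-205 at 53.9%, on 54 fragments in replicate 2. Etv1 changed from Etv1-206 at 35.5% to Etv1-202 at 26.0%, and Lmo3 from Lmo3-206 at 41.1% to Lmo3-204 at 31.5%. In replicate 2 both were near ties, with Etv1-206 at 25.2% and Lmo3-206 at 30.8%. The second tables gave Etv1-206 and Lmo3-206 in both libraries. By fragments, Lmo3-204 led in both, at 52.5% and 53.6%, and Etv1 changed from Etv1-201 at 37.6% to Etv1-202 at 37.3%. Both Lmo3 transcripts encode a protein of 145 amino acids. Rorb-203 and Rorb-201, which encode 459 and 470 amino acids, were nearly equal in the first tables at 50.6% and 49.2% in replicate 1, while the second tables gave Rorb-203 86.7% in replicate 1 and 75.04% in replicate 2. For Bcl11b, Bcl11b-203 held 67.8% and 54.1% of TPM, and the longer Bcl11b-201 held 55.6% and 50.7% of fragments.

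In 3 genes the main transcript by TPM was not protein coding in both libraries, beside 8.03% of comparable genes. For Syt6 it was Syt6-206, annotated as a target of nonsense-mediated decay with a coding part for 71 amino acids, at 58.95% and 55.04% of TPM and 61.5% and 57.2% of fragments. Syt6-201, which encodes the full 511 amino acids, held 23.8% and 17.3% of TPM. For Arpp21 it was the 2402-base processed transcript Arpp21-218, at 42.7% and 28.3% of TPM and 63.0% and 52.8% of fragments. Transcripts of Arpp21 annotated as protein coding together held 21.7% and 29.0% of its fragments. For Sox5 it was the 351-base processed transcript Sox5-208, at 32.8% and 30.6% of TPM but 2.92% and 2.998% of fragments, where the coding Sox5-201 led at 48.3% and 35.4%; the second table gave Sox5-202 in replicate 1.

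The main Mef2c transcript by TPM, Mef2c-217, is a 689-base model whose coding part is incomplete at its end. It held 40.04% and 32.2% of TPM and 10.9% and 8.02% of fragments, where the full Mef2c-213 led at 38.8% and 33.7%. A further 4 genes stood outside the rule for naming transcripts and are given after their values were seen. Emx1-202, a transcript with a retained intron, held 29.1% and 40.3% of the TPM of Emx1. Calb1-202, also with a retained intron, held 25.1% and 22.2% of TPM and 4.25% and 3.88% of fragments. Lhx2-203 held 31.6% of the TPM of Lhx2 in replicate 1 and 2.64% in replicate 2. Rasgrf2-203, a model with an incomplete coding part, held 72.8% and 64.2% of the TPM of Rasgrf2. By fragments, the main transcript was the same as by TPM in both libraries for 21 of the 30 genes.

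**Figure D5:**
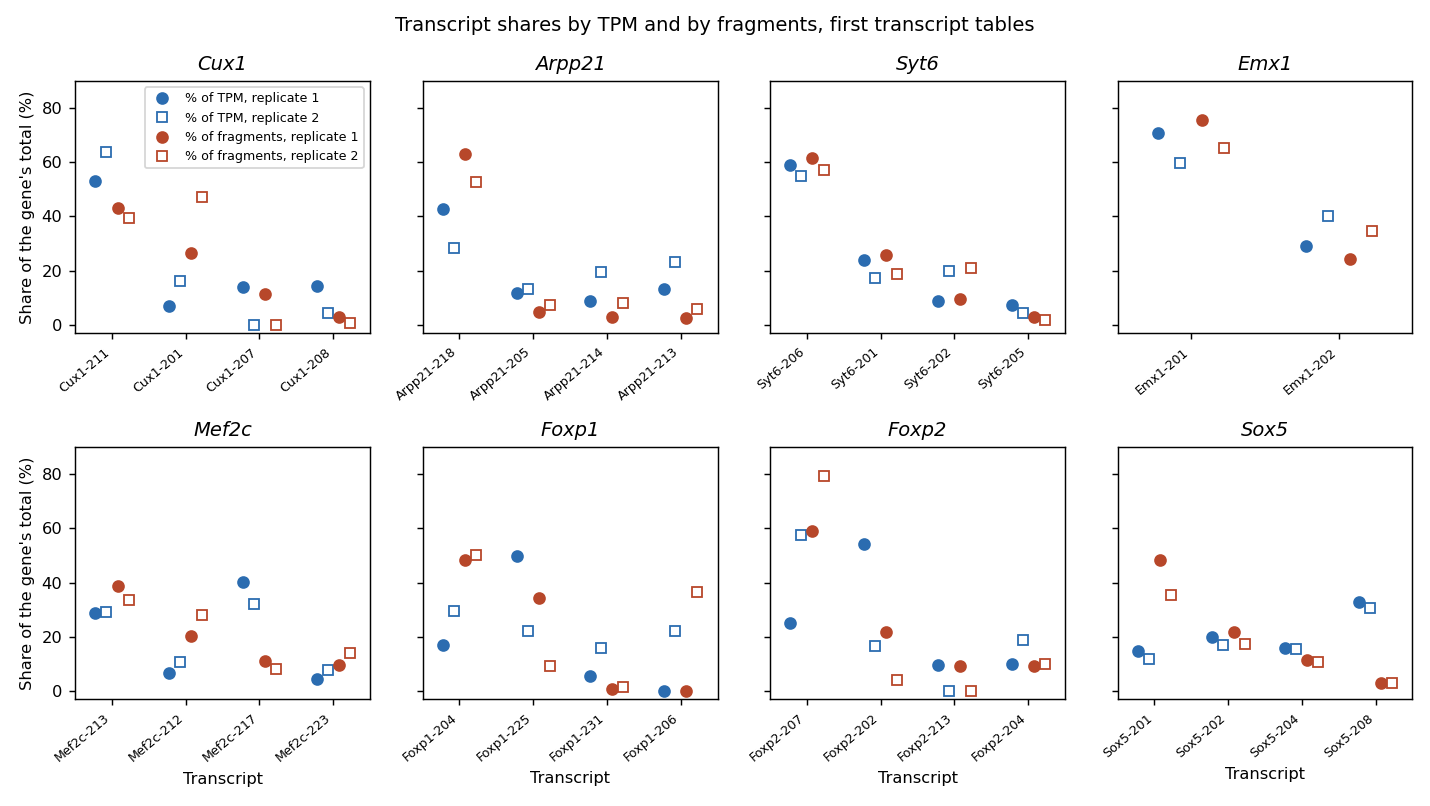
Share of each gene's total (percent) held by its leading transcripts in the first transcript tables, by TPM (blue) and by fragments (red), in replicate 1 (filled circles) and replicate 2 (open squares), for 8 genes. Sox5-208 and Mef2c-217 are high by TPM and low by fragments, Syt6-206 leads by both, and Foxp1-206 is at 0 in replicate 1 and at 36.7% of fragments in replicate 2.

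The second quantification gave nearly the same gene levels. All 39 genes lay within 1.5-fold of the gene table in both libraries, at 0.684 to 0.960 times in replicate 1 and 0.736 to 1.03 times in replicate 2, and none differed by 2-fold the same way in both, beside 2.31% of detected genes. Of the 39 genes, 17 are overlapped by another annotated gene, which held at least 10% of the gene's fragments in a library for 3: Tshz2 (above), Pou3f3, with AC122898.1 on the same strand at 16.3% and 19.8%, and Rspo1, with the antisense Gm12930 at 2.41% and 10.3%. Whether counting used strand is not given in the sources read here. At least 95% of the 31-base words occurred in no other gene for 33 of the 39; besides Tshz2 and Pou3f1, the exceptions were Etv1 at 89.99%, Sox5 at 90.6%, Syt6 at 92.0% and Deptor at 94.0%.

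Other genes of excitatory neurons and layers, from lists drawn up beside the 39, also divided. Of all tested genes, 3.22% were called higher and 17.2% lower. Of 10 tested further excitatory neuron genes, 1 was called higher and 3 lower. The vesicular glutamate transporter gene Slc17a7, the defining marker of these neurons in the cortex, was at 82.7 and 37.2 TPM (log2 ratio -1.29), while the kinase gene Camk2a was at 848 and 1083 TPM (0.09). The calmodulin-binding Nrgn was at 449 and 159 TPM (-1.57) and the pentraxin Nptx1 at 110.1 and 80.8 TPM (-0.59). The only gene of this list called higher was the transporter Slc17a8, at 0.21 and 0.43 TPM (0.65). It lay under the detection level in both libraries, on 34 and 38 fragments. Eomes, a marker of intermediate progenitors, was listed at 0.01 and 0 TPM. Of 8 further upper layer genes, Endou (0.60) and Unc5d (0.66) were called higher and Adamts2 (-0.99) lower. Wfs1 and Plxnd1 were their highest in mean TPM, at 52.4 and 54.8 TPM and at 9.05 and 12.4 TPM, and Mdga1 their lowest at 1.03 and 0.97 TPM. Of 13 further deep layer genes, Oprk1 (0.64) and Trh (0.60) were called higher and Sulf2 (-0.84) lower. Pcp4 at 927 and 1115 TPM and Lxn at 72.0 and 95.9 TPM were their highest, and Npr3 at 0.58 and 0.66 TPM their lowest.

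Markers of other cell types and regions were measured beside these genes, and their part in the differences was not tested. Of all tested genes, 3.22% were called higher and 17.2% lower, and 62.6% passed on the adjusted p of the exact test alone. All 8 GABAergic interneuron markers were detected, with a summed level of 381 and 475 TPM (Gad1 highest at 114 and 162 TPM, then Sst at 109 and 146 TPM, lowest Adarb2 at 3.22 and 3.40 TPM), and 1 of 8 was called, Slc32a1 lower at -0.84. The 7 astrocyte markers summed to 1665 and 2025 TPM (Aldoc at 1129 and 1397 TPM, Slc1a2 at 165 and 188 TPM), and 1 was called, Sox9, their lowest, at -0.78. The 7 oligodendrocyte markers summed to 3328 and 3616 TPM (Mbp highest at 2061 and 2049 TPM, Ermn lowest at 22.2 and 30.9 TPM) and the 7 microglia markers to 558 and 600.3 TPM (C1qa at 156 and 135 TPM, Tmem119 lowest at 14.8 and 19.0 TPM), with 0 called in each at 1.5-fold and 6 of 7 in each on the adjusted p of the exact test alone. The 6 endothelial markers summed to 202 and 251 TPM (Cldn5 at 94.2 and 131 TPM, Itm2a at 72.4 and 83.0 TPM), and 1 was called, Cdh5, their lowest, at -0.79.

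The calls in the region lists below stand beside 3.22% of all tested genes called higher and 17.2% called lower. Of the 7 striatal markers, which summed to 321 and 266 TPM, Adora2a was called higher at 0.64. Six3, the lowest of these markers, was called lower at -0.62, on 128 and 42 fragments. Ppp1r1b was the highest at 197 and 169 TPM. The list is given here because Bcl11b, Foxp1 and Arpp21 are also striatal genes; in replicate 2, where the striatal sum was lower, the TPM of Arpp21 and Bcl11b was higher and that of Foxp1 lower. The 6 hippocampal markers summed to 8.72 and 12.7 TPM, with Fibcd1 at 2.61 and 2.31 TPM and Dsp at 0.05 and 0.01 TPM. Among them Spink8 (1.90 and 5.05 TPM) was called higher at 0.99, on 41 and 60 fragments. The 6 thalamic markers summed to 83.5 and 80.7 TPM, with Lef1 called lower at -0.87, Tcf7l2 at 47.4 and 44.5 TPM, Ramp3 at 21.9 and 23.7 TPM and Gbx2 at 0.10 and 0.04 TPM. No marker in these cell type and region lists was at 0 in either library.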

How the data were processed

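Left cortex poly(A)-selected RNA was sequenced as 2 libraries of 1 group. Per the file headers, the deposited gene tables and first transcript tables hold expected counts and TPM, and the percent of the gene's TPM for each transcript, computed by the authors; the deposited second transcript tables hold estimated counts and TPM. Per the deposited notes, all use mm10 and GENCODE M21; aligner, quantifier and strand setting: not given in the sources used here. The 39 genes, their roles and the other lists were chosen with earlier results of these data known, and the lists are no independent support.

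Rows that name no gene held 1.73e-05 and 3.35e-05 percent of fragments and were left out. Expected counts, rounded to whole numbers, entered a two-sided exact binomial test per gene, at library sizes scaled by TMM (edgeR 4.0.16, R 4.3.3; scipy 1.17.1, Python 3.11.15), with Benjamini-Hochberg adjustment over the 14640 genes whose mean CPM reached 1. Log2 ratios used CPM plus 0.5, and their intervals were computed without the added 0.5. The procedure was also run on simulated counts, drawn around known folds with counting error alone. These had no GC trend, so they cannot show how the calls behave in these libraries. Trends on GC content and length were fitted by lowess (span 0.3; statsmodels 0.14.6). Transcript shares by fragments are transcript counts over the gene's sum. The 31-base words and the printed sequences were read from mm10 and its gene models. All 39 genes were named; of each other list the 2 with the highest mean TPM, the lowest and any called gene were named, except 3 genes that are not reported here; a transcript was named where the main transcript differed between libraries or quantifications, held under 70 percent with a second at 20 percent or more in both libraries, or was not coding. Alternatives covered scaling (total counts; DESeq2 1.42.0 size factors), filters, pseudocounts, the second quantification and single libraries. The ratio of TPM, the main transcript by fragments and the level per longest coding transcript were added after seeing the data.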

Additional observations from a re-analysis of the deposited data

How the results depend on the processing

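Of 310 comparisons of a single gene with an alternative, 282 kept direction and side of the threshold, and 27 of the 39 genes kept their call under every alternative run. The direction turned in 8, all in genes not called: Etv1 to 0.12 and Tle4 to 0.088 under total-count scaling, Pou3f1 to 0.22, Neurod6 to -0.073 and Tle4 to 0.0033 without GC and length trends, and Foxp2 to -0.59, Cplx3 to 0.31 and Tle4 to 0.11 by TPM. Total-count scaling moved the median log2 ratio of upper layer genes to -0.30 and of pan-excitatory genes to 0.30, and that of deep layer genes from -0.10 to 0.03; Cux2 and Zfpm2 lost their calls and Pou3f2 gained one at 0.62. With the filter raised to a mean CPM of 5, the upper layer median was -0.30, with fewer genes tested. Removing GC and length trends left 7 genes lower in place of 12, beside 15.1% of all tested genes, and a pan-excitatory median of 0.051. The ratio of TPM gave 7 genes higher in place of 4, beside 6.99% of all tested genes. In the second quantification Cux2 and Neurod2 lost their calls. Per longest coding transcript the deep layer median was 12.4, beside 9.66 TPM. These values are on different scales and cannot be compared directly. For most detected coding genes, TPM was the lower of the 2 measures. The upper layer and pan-excitatory medians were also higher per longest coding transcript than in TPM. Why calls and medians changed under the other alternatives was not tested. From 1 library alone, 38 to 39 genes were detected, and medians ranged from 6.50 to 12.3 TPM (upper layer), 8.88 to 10.4 TPM (deep layer) and 35.8 to 52.8 TPM (pan-excitatory). No paired analysis was possible because there is 1 group; leaving out a library leaves no comparison. Nxph4 rests on 26 fragments in replicate 2.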
